A study of Mus musculus with 6 samples.

Results

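The genes described here encode the subunits of the mitochondrial respiratory chain and ATP synthase, or a few factors that share their names, and 1 is a pseudogene. They were chosen by a rule on symbols, with earlier results of these data known. The rule took every gene whose symbol starts with Ndufa, Ndufb, Ndufc, Ndufs, Ndufv, Uqcr, Cox4i, Cox5, Cox6, Cox7, Cox8 or Atp5, with Sdha, Sdhb, Sdhc, Sdhd, Cyc1 and Cycs. Of 19057 genes with a probe on the array, 89 met this rule, and 81 of the 89 passed the expression filter, which required detection (p under 0.01) on 3 or more of 6 arrays. RNA from the ectoderm that covers the eye of E9.5 mouse embryos was hybridised to Illumina bead arrays. The Pax6-/- samples (3 arrays) are labelled surface ectoderm and the wild-type samples (3 arrays) are labelled lens placode, both on a mixed background of FVB; 129. Tissue was taken by laser microdissection from frozen sections, RNA of 3 embryos was pooled for each genotype, and each pool was amplified and hybridised in triplicate. Every p-value therefore compares 2 pools, the spread behind it is that of amplification and array, and region dissected and genotype cannot be told apart. The part of Pax6 that was deleted is not given in the labels. As these are bulk samples, fewer cells of a type and less RNA per cell cannot be told apart.

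The respiratory chain passes electrons from NADH (complex I) and succinate (complex II) through ubiquinone, complex III and the small carrier cytochrome c to oxygen at complex IV, and the proton gradient so built drives ATP synthase (complex V). Most subunits are encoded in the nucleus and imported, while a small core set is encoded in mitochondrial DNA. Nuclear genes of the chain are known to be controlled in many tissues by the factors NRF-1, GABP (an ETS-family factor also called NRF-2) and YY1, and several complex IV subunits exist as isoforms restricted to heart, muscle, lung or testis.

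Of the 89 respiratory chain genes on the array, 81 passed the expression filter (91.0%, beside 48.2% of all genes). Of the 81 tested genes, 0 were higher and 0 were lower in Pax6-/- ectoderm by limma at an adjusted p under 0.05, where 3.28% of the 9190 genes tested passed (1.51% higher and 1.76% lower). The lowest adjusted p among the 81 genes was 0.106, for Atp5j2. With arrays scaled to the median of all probes in place of quantile normalisation, which moved the median of all genes to -0.13, 3 of the 81 were called lower (Ndufa1, Atp5j2 and Atp5e). At an unadjusted p under 0.05, 15 of the 81 were lower (18.5%) and 3 were higher (3.70%), beside 8.39% lower and 8.53% higher among all genes tested. For 20 genes (24.7%) every Pax6-/- array lay below every wild-type array, and for 4 (4.94%) every one lay above, beside 11.5% and 11.2% of all genes tested. The median change, Pax6-/- minus wild type on the log2 scale, was -0.08 over the 81 genes and -0.01 over all genes tested, and 55 of the 81 lay below 0 (67.9%, beside 51.4% of all genes).

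The measurements of these genes were narrower than those of most genes. The median standard error (SE) of a change was 0.14 over the 81 genes and 0.28 over all genes tested. The 95% interval of the change lay wholly within 2-fold in either direction for 71 of the 81 genes (87.7%, beside 59.9% of all genes), and within 1.5-fold for 48 (59.3%, beside 23.1%). At the p-value of the last gene called, a change of 0.60 on the log2 scale (1.52-fold) would have been called at the median SE of the 81 genes, against 1.16 (2.23-fold) over all genes. Smaller differences would not have been called at that error.

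**Figure D1:**
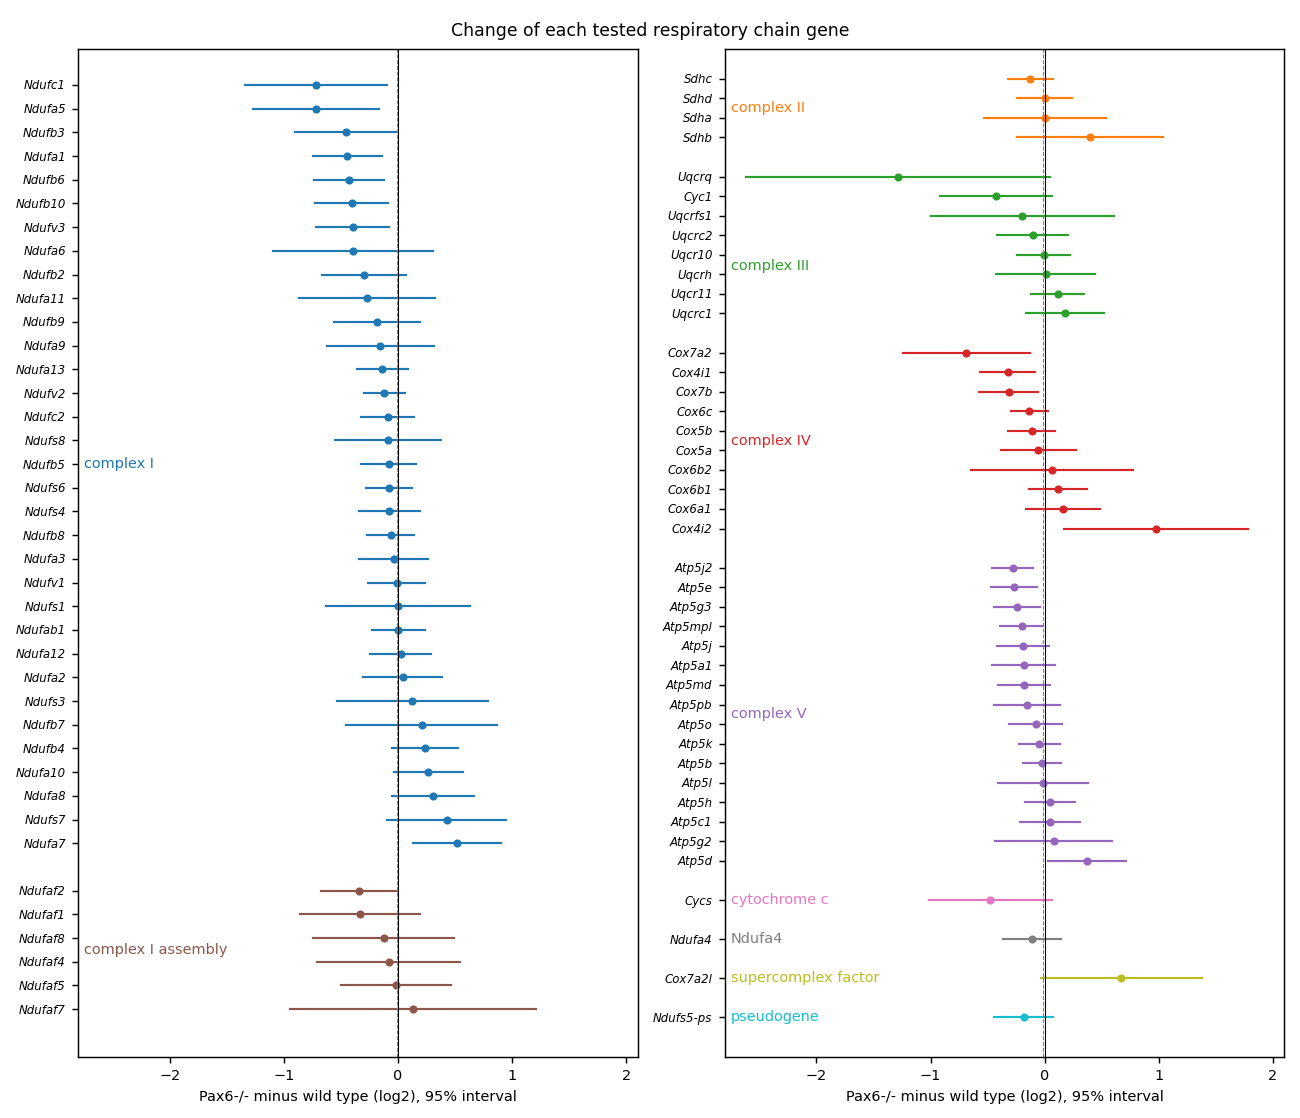
Change of each tested gene, Pax6-/- minus wild type on the log2 scale (horizontal axis), with its 95% interval from limma as a line, grouped by complex; the solid line marks 0 and the dashed line the median of all genes tested, -0.01. Most points lie within 0.5 of 0 and none passed an adjusted p under 0.05; the widest interval is that of Uqcrq, from -2.62 to 0.05.

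**Figure D2:**
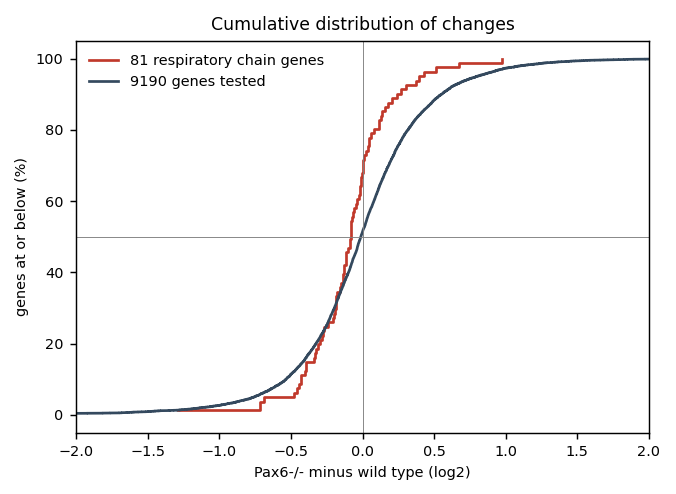
Cumulative share of genes (vertical axis, percent) at or below each change (horizontal axis, Pax6-/- minus wild type, log2) for the 81 respiratory chain genes and all 9190 genes tested. The curve of the respiratory chain genes is steeper and crosses 50% at -0.08, against -0.01 for all genes.

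The promoters of these genes were searched for the cores of NRF-1, ETS factors and YY1, each of which was in a minority of the windows. RefSeq promoter windows of the GRCm38.p6 assembly, running from 250 bases before to 50 bases after a gene's start, were matched for 73 of 88 genes by symbol, with 78 windows in all, after leaving out the pseudogene Ndufs5-ps. The NRF-1 core, searched as CGCANGCG on both strands, was in 41.0% of these windows and in 8.21% of all 32851 windows in the table. The ETS core CCGGAAG was in 23.1% against 8.86%, and the YY1 core AAGATGGC in 14.1% against 2.75%. The NRF-1 and ETS cores hold CG dinucleotides, and the windows of the respiratory chain genes were rich in them, with a median of 20 per window against 7 in all windows. Only the NRF-1 core was compared among CG-rich windows. Among windows with at least 15 CG dinucleotides the NRF-1 core was in 48.4% of the respiratory chain windows and 21.1% of all windows. By complex it was found in 33.3% of 33 windows of complex I, 66.7% of 3 of complex II, 60.0% of 5 of complex III, 10.0% of 10 of complex IV and 64.7% of 17 of complex V. At least 1 of the 3 cores was in 64.1% of the 78 windows, 17.6% of all windows and 20.0% of those of complex IV. The 10 windows of complex IV cover 10 of its 15 genes. They leave out Cox4i1, Cox4i2 and Cox6c and include Cox7a1, Cox7b2 and Cox8b, which did not pass the expression filter. No enrichment was tested. A match is a string of letters in the window and was not tested as a binding site.

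**Figure D3:**
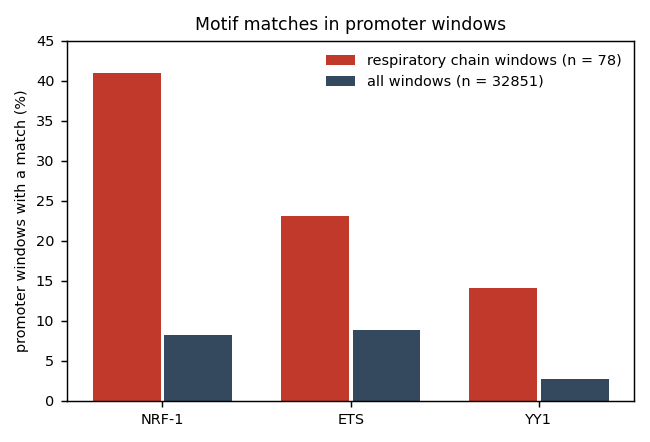
Share of promoter windows (vertical axis, percent) with at least 1 match to the core of NRF-1, ETS factors or YY1 on either strand, in 78 windows of respiratory chain genes and in all 32851 windows. The respiratory chain windows stand at 41.0%, 23.1% and 14.1%, each above the share in all windows.

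Promoter windows of 4 genes are given to show these matches, which are in capitals, beside the range of changes. Cycs, which encodes cytochrome c, is a textbook NRF-1 gene, Ndufa5 and Ndufa7 stood near opposite ends of the changes within complex I, and Atp5j2 had the lowest adjusted p. The NRF-1 core began 61 bases before the start of Cycs (chr6:50566520-50566819, minus strand), 189 bases before that of Ndufa5 (chr6:24527477-24527776, minus strand) and 7 bases before that of Ndufa7 (chr17:33824322-33824621, plus strand), and the YY1 core began at base 24 after the start of Atp5j2 (chr5:145191492-145191791, minus strand). Of the 2 windows of Ndufa5 and of Ndufa7, the one with more matches is shown, or the first by position where they tie.
Cycs: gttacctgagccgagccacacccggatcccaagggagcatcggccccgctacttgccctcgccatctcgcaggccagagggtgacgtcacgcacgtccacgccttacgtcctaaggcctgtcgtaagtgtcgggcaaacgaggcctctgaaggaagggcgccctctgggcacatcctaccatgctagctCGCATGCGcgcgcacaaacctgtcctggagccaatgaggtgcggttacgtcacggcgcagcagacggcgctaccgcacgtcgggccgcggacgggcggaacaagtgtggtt
Ndufa5: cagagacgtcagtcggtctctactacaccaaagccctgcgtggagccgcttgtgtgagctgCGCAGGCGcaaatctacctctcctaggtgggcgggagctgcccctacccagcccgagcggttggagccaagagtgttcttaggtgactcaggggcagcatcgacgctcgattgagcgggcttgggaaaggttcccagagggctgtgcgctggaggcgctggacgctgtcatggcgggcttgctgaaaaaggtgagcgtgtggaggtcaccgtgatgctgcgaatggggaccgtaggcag
Ndufa7: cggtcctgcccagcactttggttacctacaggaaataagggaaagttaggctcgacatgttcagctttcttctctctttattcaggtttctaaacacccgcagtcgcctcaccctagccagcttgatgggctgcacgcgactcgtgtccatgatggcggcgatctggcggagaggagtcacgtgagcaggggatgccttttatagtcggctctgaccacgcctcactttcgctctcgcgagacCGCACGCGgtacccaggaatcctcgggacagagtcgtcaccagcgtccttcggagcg
Atp5j2: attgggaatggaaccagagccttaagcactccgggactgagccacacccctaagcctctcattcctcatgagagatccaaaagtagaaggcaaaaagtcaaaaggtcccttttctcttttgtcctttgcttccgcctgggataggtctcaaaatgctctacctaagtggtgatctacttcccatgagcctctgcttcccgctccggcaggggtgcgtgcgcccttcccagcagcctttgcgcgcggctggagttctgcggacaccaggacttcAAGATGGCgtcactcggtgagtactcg
Ndufa5 and Ndufa7 thus both held the NRF-1 core, with changes of -0.72 and 0.52. Over the tested genes with a window, the median change was -0.02 for the 29 with an NRF-1 core and -0.09 for the 39 without, with a range of -0.72 to 0.52 among the 29. For the ETS core the medians were -0.01 for the 18 with it and -0.08 for the 50 without. For the YY1 core the order was the other way, at -0.13 for the 11 with it and -0.05 for the 57 without. None of these differences was tested.

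By complex, the medians of change lay close to 0 and the counts called were 0 throughout. The median was -0.08 for 33 genes of complex I (22 below 0), 0.00 for 4 of complex II (2 below 0), -0.06 for 8 of complex III (5 below 0), -0.09 for 10 of complex IV (6 below 0) and -0.12 for 16 of complex V (12 below 0). Non-overlapping arrays with lower values in Pax6-/- ectoderm were found for 8 genes of complex I (24.2%), 0 of complex II, 1 of complex III (12.5%), 2 of complex IV (20.0%) and 7 of complex V (43.8%), beside 11.5% of all genes tested. Higher values without overlap were found for 1 gene of complex I (3.03%), 1 of complex IV (10.0%) and 1 of complex V (6.25%), and 0 of complexes II and III, beside 11.2% of all genes tested. The difference between complexes was not tested.

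Seen by array, the shift was small but ran the same way for the 81 genes as a whole. After each gene was centred on its mean over the 6 arrays, the median of the 81 genes was -0.05, -0.07 and -0.05 on Pax6-/- arrays 1 to 3 and 0.08, 0.03 and 0.02 on wild-type arrays 1 to 3. Over all genes tested the same medians were 0.01, 0.00 and 0.01 on Pax6-/- arrays and 0.03, 0.01 and 0.00 on wild-type arrays. In complex V the values were -0.07, -0.06 and -0.06 in Pax6-/- ectoderm and 0.07, 0.06 and 0.00 in wild type, and in complex I -0.02, -0.07 and -0.05 in Pax6-/- ectoderm and 0.07, 0.02 and 0.02 in wild type. The genotypes did not overlap in complexes I and V, and they overlapped in complexes II, III and IV. Arrays lay on 2 slides, and the median change of the 81 genes was -0.11 on slide 1 (2 arrays per genotype) and -0.09 on slide 2 (1 array per genotype). For complexes I to V it was -0.11, -0.02, 0.01, -0.10 and -0.14 on slide 1 and -0.09, 0.04, 0.01, 0.04 and -0.17 on slide 2. Leaving out 1 array moved the median of complex V to -0.17 without Pax6-/- array 1 and -0.07 without wild-type array 1. That of complex III was -0.01 when wild-type array 1 was left out, -0.02 when wild-type array 2 was, and -0.09 when wild-type array 3 was. That of complex II ranged from -0.05 (wild-type array 3 left out) to 0.08 (Pax6-/- array 2 left out).

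**Figure D4:**
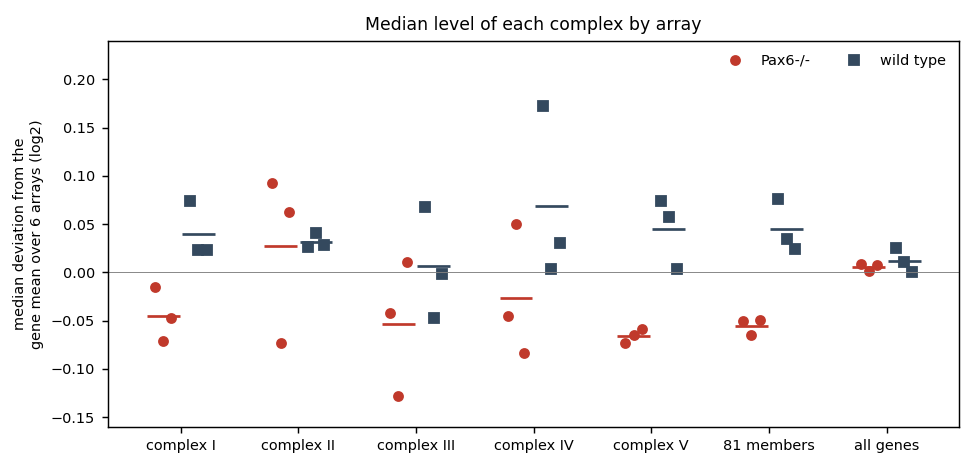
Median deviation of each gene from its own mean over the 6 arrays (vertical axis, log2) for complexes I to V, all 81 respiratory chain genes and all genes tested; each point is 1 array, circles are Pax6-/-, squares are wild type, and short lines are means of 3 arrays. The Pax6-/- arrays of the 81 genes sit between -0.07 and -0.05 and the wild-type arrays between 0.02 and 0.08.

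Complex I, the NADH dehydrogenase, held the largest group. Its nuclear-encoded core subunits, most of which carry flavin or iron-sulfur clusters, had a median change of -0.00 over 6 tested genes, 3 on each side of 0, and the genotypes overlapped for each of them. Ndufv1, which binds NADH, had log2 intensities of 10.42, 10.64 and 10.58 on Pax6-/- arrays and 10.60, 10.53 and 10.55 on wild-type arrays (change -0.01, 95% interval -0.26 to 0.24). The highest change of the core subunits was that of Ndufs7, an iron-sulfur protein next to the quinone site, at 9.13, 9.27 and 8.67 in Pax6-/- ectoderm and 8.77, 8.83 and 8.20 in wild type. Its change of 0.43 (SE 0.24) did not pass (limma adjusted p = 0.4).

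The 27 tested accessory subunits of complex I, which surround the core and stabilise it, had a median of -0.09, with 19 below 0. Ndufa5, an accessory subunit of the matrix arm, stood at 8.84, 7.95 and 8.11 in Pax6-/- ectoderm and at 9.18, 9.03 and 8.85 in wild type. The highest Pax6-/- array came to just under the lowest wild-type array, and the change of -0.72 (SE 0.25) had an adjusted p = 0.168. A further Ndufa5 probe stood at -0.50 (adjusted p = 0.297 in the fit over all kept probes). Ndufc1, a small membrane subunit, had 7.13, 7.27 and 7.31 on Pax6-/- arrays and 8.36, 7.93 and 7.58 on wild-type arrays (change -0.72, SE 0.28, adjusted p = 0.218), and its further probe stood at -0.56. Ndufb3, also of the membrane arm, had 8.55, 8.33 and 8.85 in Pax6-/- ectoderm and 9.18, 9.03 and 8.88 in wild type, without overlap and with a change of -0.46 (SE 0.20, adjusted p = 0.282).

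The membrane-arm subunit Ndufa1, which was named after its values were seen, is X-linked. It had 10.31, 10.37 and 9.99 in Pax6-/- ectoderm and 10.81, 10.57 and 10.62 in wild type, a change of -0.45 (SE 0.14, adjusted p = 0.121) with no overlap. The X-linked complex IV gene Cox7b stood at -0.31 (SE 0.12) with overlapping arrays, and the third X-linked gene of the group, Ndufb11, was not detected on any array by either of its 2 probes. The pools differed in sex-linked transcripts: Xist was at 11.59 in Pax6-/- and 10.05 in wild type, and the Y-linked gene Eif2s3y was not detected on any Pax6-/- array and was detected on all 3 wild-type arrays. Whether the make-up of the pools by sex had a part in the values of Ndufa1 and Cox7b was not tested.

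At the other end of complex I, Ndufa7, an accessory subunit of the matrix arm, had 9.14, 9.47 and 9.45 in Pax6-/- ectoderm and 8.92, 8.73 and 8.87 in wild type. Every Pax6-/- array was above every wild-type array, and the change of 0.52 (SE 0.17) had an adjusted p = 0.152. Ndufa8, a subunit of the intermembrane face, had a change of 0.31 (SE 0.16, adjusted p = 0.377), and its further probe stood at -0.14.

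Assembly factors of complex I, which act on the nascent complex and leave it, were listed by the same prefix. Of 8, 6 were tested, with a median of -0.10 and 5 below 0. Ndufaf2 had 9.70, 9.58 and 9.78 in Pax6-/- ectoderm and 10.21, 10.07 and 9.81 in wild type (change -0.34, SE 0.15, adjusted p = 0.277), without overlap although the nearest arrays were at 9.78 and 9.81. The other tested factors, Ndufaf1 (-0.33), Ndufaf8 (-0.13), Ndufaf4 (-0.08), Ndufaf5 (-0.02) and Ndufaf7 (0.13), had overlapping arrays. A further probe stood at 0.51 for Ndufaf8 and at -0.13 for Ndufaf5, and Ndufaf7 was detected on 2 of 3 wild-type arrays. Ndufaf3 and Ndufaf6 did not pass the expression filter.

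Complex II, succinate dehydrogenase, links the tricarboxylic acid cycle to the chain and has 4 subunits, all nuclear. The flavoprotein gene Sdha had 8.02, 7.74 and 8.05 in Pax6-/- ectoderm and 8.09, 7.99 and 7.71 in wild type, and the membrane anchor Sdhd 10.90, 10.68 and 10.81 in Pax6-/- ectoderm and 10.72, 10.85 and 10.82 in wild type. The genotypes overlapped for both genes, and the 95% intervals of the changes were -0.53 to 0.54 and -0.24 to 0.24. The other anchor, Sdhc, stood at -0.13 (SE 0.09). The iron-sulfur subunit Sdhb had a change of 0.40 (SE 0.29, adjusted p = 0.539), and its 3 probes went different ways: the further ones stood at 0.43 and -0.83, none of them called.

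Complex III, the cytochrome bc1 complex, passes electrons from ubiquinol to cytochrome c. Its redox subunit Cyc1, cytochrome c1, had 8.01, 8.05 and 8.07 in Pax6-/- ectoderm and 8.57, 8.17 and 8.67 in wild type. The arrays did not overlap, and the change of -0.43 (SE 0.22) had an adjusted p = 0.368. The Rieske iron-sulfur protein gene Uqcrfs1 stood at -0.20 (SE 0.36). Uqcrq, a small subunit, had the lowest change of the 81 genes with all arrays, -1.29, and also the widest error (SE 0.61, adjusted p = 0.314). Its values were 6.94, 5.07 and 6.79 in Pax6-/- ectoderm and 8.24, 6.24 and 8.18 in wild type, with no detection on Pax6-/- array 2. The arrays overlapped, and the lowest array of each genotype was over 1.5 log2 units under its other arrays. The change was -0.69 without Pax6-/- array 2, where Cox7a2 (-0.88) stood lower, -1.94 without wild-type array 2, -2.28 on slide 1 alone and -0.66 with no background correction. The core protein gene Uqcrc1 (0.18, SE 0.16), Uqcr11 (0.11, SE 0.10) and the hinge protein gene Uqcrh (0.01, SE 0.20) were the highest of the complex.

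Cytochrome c itself, from Cycs, had 9.13, 8.70 and 8.14 in Pax6-/- ectoderm and 9.27, 9.002 and 9.14 in wild type. The change was -0.48 (SE 0.24, adjusted p = 0.354) and the arrays overlapped. It was -0.22 without Pax6-/- array 3 and -0.78 on slide 1 alone. The other 2 Cycs probes stood at -1.16 and 0.12 and were not called (limma adjusted p = 0.192 and 0.85 in the fit over all kept probes).

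Complex IV, cytochrome c oxidase, reduces oxygen to water. Of 15 genes, 10 were tested. The heart and muscle isoform Cox6a2, the muscle isoform Cox8b and the testis genes Cox7b2 and Cox8c were not detected on any array, and the heart and muscle isoform Cox7a1 was detected on 2 of 6 arrays, whereas the ubiquitous partners Cox6a1 and Cox7a2 were detected on all 6. The ubiquitous Cox4i1 had 10.52, 10.39 and 10.54 in Pax6-/- ectoderm and 10.89, 10.74 and 10.79 in wild type, a change of -0.32 (SE 0.11, adjusted p = 0.152) without overlap. Its alternative isoform Cox4i2, known from lung and from low oxygen, was detected on all 6 arrays at 6.63, 7.40 and 6.26 in Pax6-/- ectoderm and 5.83, 5.84 and 5.68 in wild type. Every Pax6-/- array was above the wild-type arrays, and the change of 0.98 (SE 0.37, adjusted p = 0.199) had a 95% interval of 0.17 to 1.78. It was the highest change of the 81 genes with this processing, but it was 0.64 in the authors' table and 0.40 with no background correction, where Ndufa7 (0.42) stood above Cox4i2.

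Cox7a2, the ubiquitous isoform of subunit VIIa, had 7.99, 8.97 and 8.77 in Pax6-/- ectoderm and 9.44, 9.10 and 9.25 in wild type (change -0.69, SE 0.25, adjusted p = 0.189). Its relative Cox7a2l, which joins complexes III and IV into supercomplexes, went the other way, at 7.65, 8.13 and 7.47 in Pax6-/- ectoderm and 6.59, 7.22 and 7.42 in wild type (change 0.67, SE 0.32, adjusted p = 0.318). For both genes the genotypes did not overlap, by a small gap for Cox7a2l. The change of Cox7a2 was -0.39 without Pax6-/- array 1, the lowest of its arrays, and that of Cox7a2l was 0.43 without wild-type array 1. Cox6a1 (0.16, SE 0.15), Cox6b1 (0.12, SE 0.12) and the testis-type isoform Cox6b2 (0.06, SE 0.32), of which 1 of 2 probes passed the filter, had overlapping arrays. Ndufa4, named for complex I and later assigned to complex IV, stood at -0.12 (SE 0.12).

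**Figure D5:**
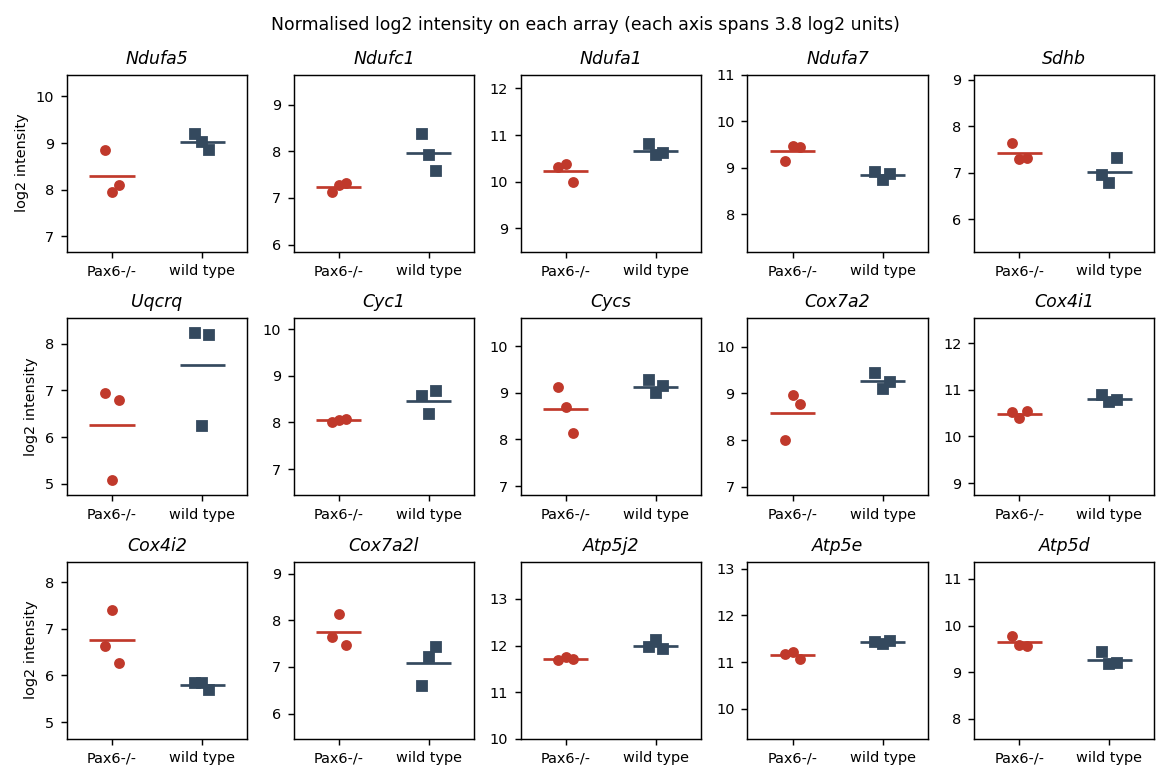
Normalised log2 intensity (vertical axes, each spanning the same range) of 15 genes on each array; circles are Pax6-/-, squares are wild type, and lines are means of 3 arrays. Cox4i2, Cox7a2l, Ndufa7 and Atp5d sit higher on Pax6-/- arrays, Ndufa5, Ndufc1, Cox7a2, Cox4i1, Atp5j2 and Atp5e sit lower, and none of these differences passed an adjusted p under 0.05.

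Complex V, ATP synthase, had the smallest errors, with a median SE of 0.10 and 95% intervals within 2-fold for all 16 genes. The catalytic F1 part has the subunits alpha (Atp5a1), beta (Atp5b), gamma (Atp5c1), delta (Atp5d) and epsilon (Atp5e), with a median change of -0.03. Atp5b had 12.05, 12.15 and 12.21 in Pax6-/- ectoderm and 12.20, 12.14 and 12.15 in wild type (change -0.03, 95% interval -0.19 to 0.14). Atp5e had 11.17, 11.22 and 11.06 in Pax6-/- ectoderm and 11.43, 11.39 and 11.45 in wild type (change -0.27, SE 0.09, adjusted p = 0.15). Atp5d had 9.77, 9.58 and 9.57 in Pax6-/- ectoderm and 9.44, 9.18 and 9.19 in wild type (change 0.37, SE 0.16, adjusted p = 0.259). Both were without overlap and in opposite directions, and Atp5c1 stood at 0.04.

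In the membrane part, all 5 small subunits lay below 0 by the probe used, with a median of -0.18. Of these, Atp5l (-0.02, SE 0.18) and Atp5k (-0.05, SE 0.08) lay close to 0. Further kept probes stood at 0.11 for Atp5k, -0.52 for Atp5l and -0.17 for Atp5mpl. Atp5j2, subunit f, had 11.69, 11.75 and 11.71 in Pax6-/- ectoderm and 11.96, 12.11 and 11.92 in wild type, a change of -0.28 (SE 0.08, adjusted p = 0.106), or 1.22-fold lower. Of the genes for the proton-carrying c ring, Atp5g3 had 11.46, 11.43 and 11.36 in Pax6-/- ectoderm and 11.57, 11.78 and 11.63 in wild type (change -0.24, SE 0.09, adjusted p = 0.199) and Atp5g2 overlapped (0.08, SE 0.23). Both encode the same mature protein with different import sequences, and whether their probes also bind the other transcript was not tested. The 4 peripheral stalk genes, Atp5pb, Atp5h, Atp5j and Atp5o, had a median of -0.12 and changes from -0.19 to 0.04. Their further probes went both ways, at 0.70 and -0.13 for Atp5j, 0.62 and -0.07 for Atp5pb, and 0.17 and -0.08 for Atp5o. The groupings within complexes were made after the values were seen.

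Of the 81 genes, 27 had a further kept probe, and 20 of these 35 further probes had the sign of the probe used, with 0 called by limma in the fit over all kept probes. The 81 genes include the pseudogene Ndufs5-ps, whose probe stood at -0.19 (SE 0.12) without overlap. Whether this probe also binds the transcript of Ndufs5 was not tested.

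The genes encoded in mitochondrial DNA, which supply subunits of complexes I, III, IV and V, had 95% intervals within 2-fold for all 8 measured. Of 13 such subunit genes, 8 had a named probe and were tested, with 0 higher and 0 lower (limma, with 0 at an unadjusted p under 0.05) and a median change of 0.02. CYTB, cytochrome b of complex III, had 12.44, 12.40 and 12.43 in Pax6-/- ectoderm and 12.45, 12.42 and 12.37 in wild type (change 0.01, SE 0.07). The complex IV subunit gene COX2 had a change of 0.02 (SE 0.07) and ATP6 of complex V -0.03 (SE 0.11). The complex I genes ND1, ND4, ND6, ND4L and ND5 stood at 0.09, 0.18, 0.12, -0.05 and -0.20, where ND5 was 11.58 on Pax6-/- array 2 and at least 12.47 on the other arrays.

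Other mitochondrial gene lists held 1 call in all. Among 20 tested genes of the tricarboxylic acid cycle and pyruvate dehydrogenase, 0 rose and 1 fell (median -0.16). That gene was Pdk2, a kinase that inhibits pyruvate dehydrogenase, which was lower in Pax6-/- ectoderm (limma adjusted p = 0.0189). Its values were 5.25, 5.32 and 5.82 in Pax6-/- ectoderm and 7.66, 6.79 and 7.34 in wild type. It was detected on 1 of 3 Pax6-/- arrays and 3 of 3 wild-type arrays, so it passed the filter mainly through the wild-type arrays and the fitted change of -1.80 rests on Pax6-/- values that were mostly not above background.

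In the remaining lists limma called 0 genes. They were 31 assembly factors of complexes II to V (median -0.08, with 1 higher and 4 lower at an unadjusted p under 0.05), 5 further assembly factors of complex I (0.30, 0 and 0), 19 genes for copying, transcribing and regulating mitochondrial DNA (0.06, 0 and 1), 22 import genes (-0.10, 1 and 1), 73 genes of the mitochondrial ribosome (-0.03, 0 and 5) and 10 glycolytic genes (0.09, 1 and 0). The largest changes among assembly factors were those of Atpaf1, a chaperone of the ATP synthase head (-1.25, SE 0.51, adjusted p = 0.245), and of Sco1, a copper chaperone of complex IV (1.13, SE 0.32, adjusted p = 0.0945). Sco1 had 6.60, 7.10 and 6.73 in Pax6-/- ectoderm and 5.77, 5.45 and 5.81 in wild type, without overlap. It was detected on 2 of 3 wild-type arrays, and Atpaf1 on 2 of 3 Pax6-/- arrays. For Polg2 (-0.77) and Ppargc1b (0.70) among the regulators, Timm13 (-0.78) and Timm17b (0.59) among the import genes, Tmem126b (0.46) and Acad9 (0.40) among complex I factors, and Mrps25 (-0.69) of the ribosome, the arrays overlapped. The ribosomal gene Mrpl55 (-0.76, detected on 2 of 3 Pax6-/- arrays) and the glycolytic gene Pfkl (0.31) were without overlap, and Eno3 (-0.25) overlapped.

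The tissues themselves differed in ways that bear on any comparison of the pools. Of 15 surface ectoderm markers 14 were tested, of which 4 rose and 0 fell, and their summed linear intensity was 21590 to 21930 on Pax6-/- arrays and 20860 to 22330 on wild-type arrays. Of the 14, 8 lay below 0 (median change -0.05), and 4 were higher and 3 lower at an unadjusted p under 0.05 by limma. Pax6 was at 10.13 in Pax6-/- and 11.09 in wild type (change -0.97, SE 0.13, adjusted p = 0.00236). Of 10 tested lens placode markers, 8 fell, and 5 of the 10 were detected on all 6 arrays. Those that fell include Prox1 (-2.82), which was detected on 2 of 3 Pax6-/- arrays. Cryge, which also fell, was not detected on any Pax6-/- array and was detected on all 3 wild-type arrays. It passed the filter only through the wild-type arrays. Among markers of neighbouring tissue, 3 of 4 tested erythroid genes rose (summed intensity 4417 to 4896 in Pax6-/- and 2139 to 2438 in wild type), 3 of 11 mesenchyme genes rose and 1 fell (7842 to 8431 in Pax6-/- and 5625 to 5988 in wild type), and 1 of 4 neural tube genes, Zic1, rose (598 to 721 in Pax6-/- and 297 to 398 in wild type). That neural tube sum includes Zic1 itself, at log2 values of 8.71, 8.21 and 8.98 in Pax6-/- and 6.76, 6.94 and 6.71 in wild type. Only 4 of 10 neural tube genes on the array were tested, and 2 of these 4 lay below 0. Of 3 optic vesicle, 2 endothelial and 1 macrophage gene tested, limma called 0 (2 of the optic vesicle genes were higher at an unadjusted p under 0.05, and 0 of the others). The parts of these in the values of the respiratory chain genes were not tested. The number of detected probes ran from 16242 to 17735 of 45281. The 301 genes called over all genes numbered 173 and 149 when Pax6-/- array 1 or 2 was left out, and 174 and 185 when wild-type array 2 or 3 was.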

How the data were processed

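Each probe's intensity was deposited as the mean signal of its beads, on a linear scale without normalisation (file headers and values). Per the file headers, every probe also has a detection p-value per array, a bead number and a bead standard error. GenomeStudio was used, per the submitters' processing notes (version: not given in the sources used here). Another deposited table of background-subtracted, normalised intensity values made by the authors (25.1% to 25.2% below 0, column medians 15.5, scale linear from its values, method unknown) served as an alternative.

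Background was corrected in limma 3.58.1 (R 4.3.3) by normexp from the detection p-values (offset 16), arrays were quantile-normalised, and values were log2-transformed. Probes with detection p under 0.01 on at least 3 of 6 arrays were kept. A gene was its kept probe with the highest mean, named through the platform annotation and RefSeq GRCm38.p6 (34885 probes with 1 symbol, 18 with several, 10378 with none). Genotypes were compared with limma with an intensity trend, and p-values were adjusted by Benjamini-Hochberg over all 9190 genes. A call is an adjusted p under 0.05. All tests are two-sided. The number of arrays limits the precision.

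The members and gene lists were chosen with earlier results of these data known. Named genes were every called member and, per complex, the 3 highest and 3 lowest changes, all of complex II and of the classes outside the complexes, the isoform pairs, and up to 4 genes per pathway list and 2 per marker list. Other members were named after their values were seen. Alternatives covered scaling, background, filter, probes, variance model, slide, replicate number, the authors' table, symbols and each array left out. The procedure was tested on simulated data. Promoter windows came from RefSeq.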

Additional observations from a re-analysis of the deposited data

How the results depend on the processing

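Members called stayed at 0 in all alternatives run except median scaling over all probes, and the median change of the 81 genes stayed below 0 and below that of all genes in each of 20 alternatives (50 to 67 genes below 0). Not all of these could move the median. It was the same -0.08 by construction with slide or replicate number as a block, no intensity trend, every kept probe tested or file symbols alone. Median scaling over all probes moved the median of all genes to -0.13. With it, 3 members were called lower: Ndufa1 (-0.61, limma adjusted p = 0.0379), Atp5j2 (-0.43, 0.0406) and Atp5e (-0.43, 0.0446), of which Ndufa1 was named after its value was seen. The median of the members was then -0.23 and those of complexes I to V were -0.24, -0.15, -0.19, -0.24 and -0.28, while 7 named members turned from above to below 0: Cox6a1 (-0.0015), Uqcr11 (-0.0505), Uqcrh (-0.14), Sdha (-0.12), Atp5c1 (-0.11), Cox6b1 (-0.05) and Atp5g2 (-0.05). That scaling aligns the median of all 45281 probes, of which 35.9% to 39.2% were detected per array. Median scaling over the kept probes gave -0.12 for the members, -0.13 for complex I and -0.17 for complex V. On slide 1 alone the members' median was -0.11. On slide 2 alone, an alternative chosen after seeing the data, complexes III, IV and V stood at 0.0114, 0.0408 and -0.17. The 301 genes called over all genes were 192 with no detection filter, 176 with no intensity trend, 68 on slide 1 alone and 182 with the replicate block. With 1 array left out they ranged from 149 to 209, the members' median from -0.09 to -0.07, and the medians of complexes I to V from -0.10 to -0.08, -0.0462 to 0.0799, -0.09 to -0.01, -0.11 to -0.06 and -0.17 to -0.0657. Arrays with the same replicate number did not deviate together (correlations -0.0259, -0.0237 and -0.00195, and 0 of 6 arrays correlated best with its own number), so the numbers do not pair the arrays. Among 39 named members, signs held in 664 of 700 comparisons with an alternative. Part of these comparisons could not change a sign. The block fits and the fits with no intensity trend or over every kept probe return the same changes. The altered detection filters also left the named changes as they were. Besides the genes so described in the results, named changes over 0.3 in size that moved by over 1.5 times were those of Ndufs7 (0.27 with median scaling over all probes, 0.23 without wild-type array 3), Ndufa8 (0.16 with that scaling, 0.46 on slide 1 alone, 0.18 without Pax6-/- array 3), Atp5d (0.21 with that scaling), Ndufc1 (-0.45), Cox7a2l (0.39) and Sdhb (0.21) with no background correction, Sdhb (0.165) and Cox7b (-0.18) on slide 1 alone, and Ndufaf1 (-0.20 without Pax6-/- array 1). The largest errors among the tested members were those of Uqcrq, Ndufaf7 and Cox4i2.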
